A study of Gallus gallus with 9 samples.

Results

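Genes of heat shock proteins and other chaperones were followed in cultured chicken preadipocytes, the precursors of fat cells. They were taken as all chicken probe sets whose 1 gene symbol in the platform annotation began with HSPA, HSPB, HSPD, HSPE, HSPH, HSP90, DNAJ, PDIA or CCT followed by a number or letter. This rule used no measured value and found 148 of the 38535 probe sets of the array, for 76 of the 13009 genes that a probe set named alone. Each gene was read from its probe set with the highest mean over the 9 arrays, and 1 probe set that shared DNAJC19 with another gene symbol was left out. Levels are log2 values per probe set that the authors made with GCRMA, so 1 unit is a factor of 2. Of the 76 genes, 57 reached 5 or more on 3 or more arrays and were tested, and the 19 others peaked at 1.79 to 4.61. By the place where the proteins are known to work, 29 of these were cytosolic or nuclear (12 heat shock proteins, 10 J-domain proteins and 7 subunits of the TRiC ring), 17 belonged to the endoplasmic reticulum and 6 to mitochondria, and 5 were not assigned (DNAJC12, DNAJC13, DNAJC14, DNAJC28 and HSPBAP1).

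The cells came from abdominal fat of laying hens and were treated at confluence. Cells of the control group were not treated, cells of the second group received an adipogenic mixture that the labels call DMIOA without spelling it out, and cells of the remaining group received DMIOA together with 10 uM retinoic acid, the vitamin A derivative that acts through nuclear receptors. Each group had 3 samples numbered 1 to 3 as biological replicates, and the biotin-labelled RNA of each was read on its own 1-colour Affymetrix array. The labels do not say whether a number stands for a hen or a culture, so the p-values rest on the spread between these samples alone, which may be technical. No time of treatment is given either. The titles of the control and DMIOA samples carry a "(2)" that those with retinoic acid lack, and whatever it marks cannot be told apart from retinoic acid. With 3 arrays in a group, the number of arrays limits the precision of every difference.

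Chaperones bind unfolded proteins and help them to reach or regain their folded shape. In the cytosol, Hsp70 proteins work with J-domain proteins, which deliver substrates and speed up ATP use, and hand some clients on to Hsp90, while the TRiC ring encloses actin, tubulin and other clients. The reticulum folds secreted and membrane proteins such as collagen with its own Hsp70, Hsp90 and disulfide isomerases, and mitochondria use a separate Hsp70 and the Hsp60 and Hsp10 chaperonin.

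Replicate number, and not only treatment, set the arrays apart. Replicate 3 stood apart in all groups (r = 0.912 to 0.931 with replicates 1 and 2 of its own group over the 12329 tested probe sets), and replicates 1 and 2 correlated at 0.995 in control, 0.963 with DMIOA and 0.997 with retinoic acid. Of 17 markers of macrophages and other leukocytes on the array, 15 were higher on all replicate 3 arrays than on the 6 others (not CD86 and MRC1). The median of the 17 was 1.83 to 2.27 in replicates 1 and 2 and 9.01, 7.44 and 5.80 in replicate 3 of control, DMIOA and retinoic acid, and the log2 of their summed level was 6.91 to 7.40 against 13.45, 12.68 and 12.08. Of 10 preadipocyte and stroma markers, COL1A1, COL1A2, COL3A1, DCN and VIM stood at 13.25 to 14.46 on every array, LUM, PPARG, THY1 and PDGFRB at 6.91 to 13.28, and PDGFRA, a defining marker of preadipocytes in mammals, at 3.53 or lower. Of 6 adipocyte markers, CEBPA, PLIN1 and ADIPOQ were at 2.99 or lower on every array, and FABP4, CIDEC and LPL were tested. The log2 of the summed level of the 6 was 10.08 to 10.53 in control, 10.71, 13.10 and 13.02 with DMIOA and 7.72, 7.65 and 12.35 with retinoic acid.

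Few chaperone genes were called by the test. With retinoic acid and DMIOA, DNAJC1 was called lower than with DMIOA alone. Against control the retinoic acid arrays had lower HSPB1 and DNAJB4 and higher DNAJC12. By limma with a Benjamini-Hochberg adjusted p under 0.05, DMIOA against control called 0 of the 57 genes. Of all 12329 tested probe sets it called only 18 (0.146%), so a count of 0 says little about chaperone genes. At an unadjusted p under 0.05 the same comparison held 4 of them (DNAJC12, HSPB1, HSPB9 and DNAJB9), against 11.6% of all probe sets. Retinoic acid with DMIOA against DMIOA called 1 gene, where 3.89% of probe sets were called, and against control it called 3, where 13.2% were.

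The replicate numbers were taken to pair the samples, although the arrays tell only replicate 3 apart from the others. With the number as a block in the same limma fit the calls were 0 (all probe sets 1.29%), 2 (10.8%) and 9 (28.8%). In the last comparison the block called DNAJC10, DNAJC12, DNAJC25 and HSP90AB1 higher and DNAJB4, DNAJC1, HSPA12A, HSPA2 and HSPB1 lower with retinoic acid. The median size of a chaperone gene's log2 difference was 0.098, 0.16 and 0.19 in the 3 comparisons, and that of all tested probe sets 0.19, 0.22 and 0.31. A difference of at least 1 on the log2 scale was reached by 0, 1 and 2 chaperone genes, where 4.34%, 7.58% and 12.6% of probe sets reached it. RNA of mixed cells was measured, so fewer cells of a type and less RNA per cell cannot be told apart. The comparisons share arrays with each other, so their values are set side by side only.

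**Figure D1:**
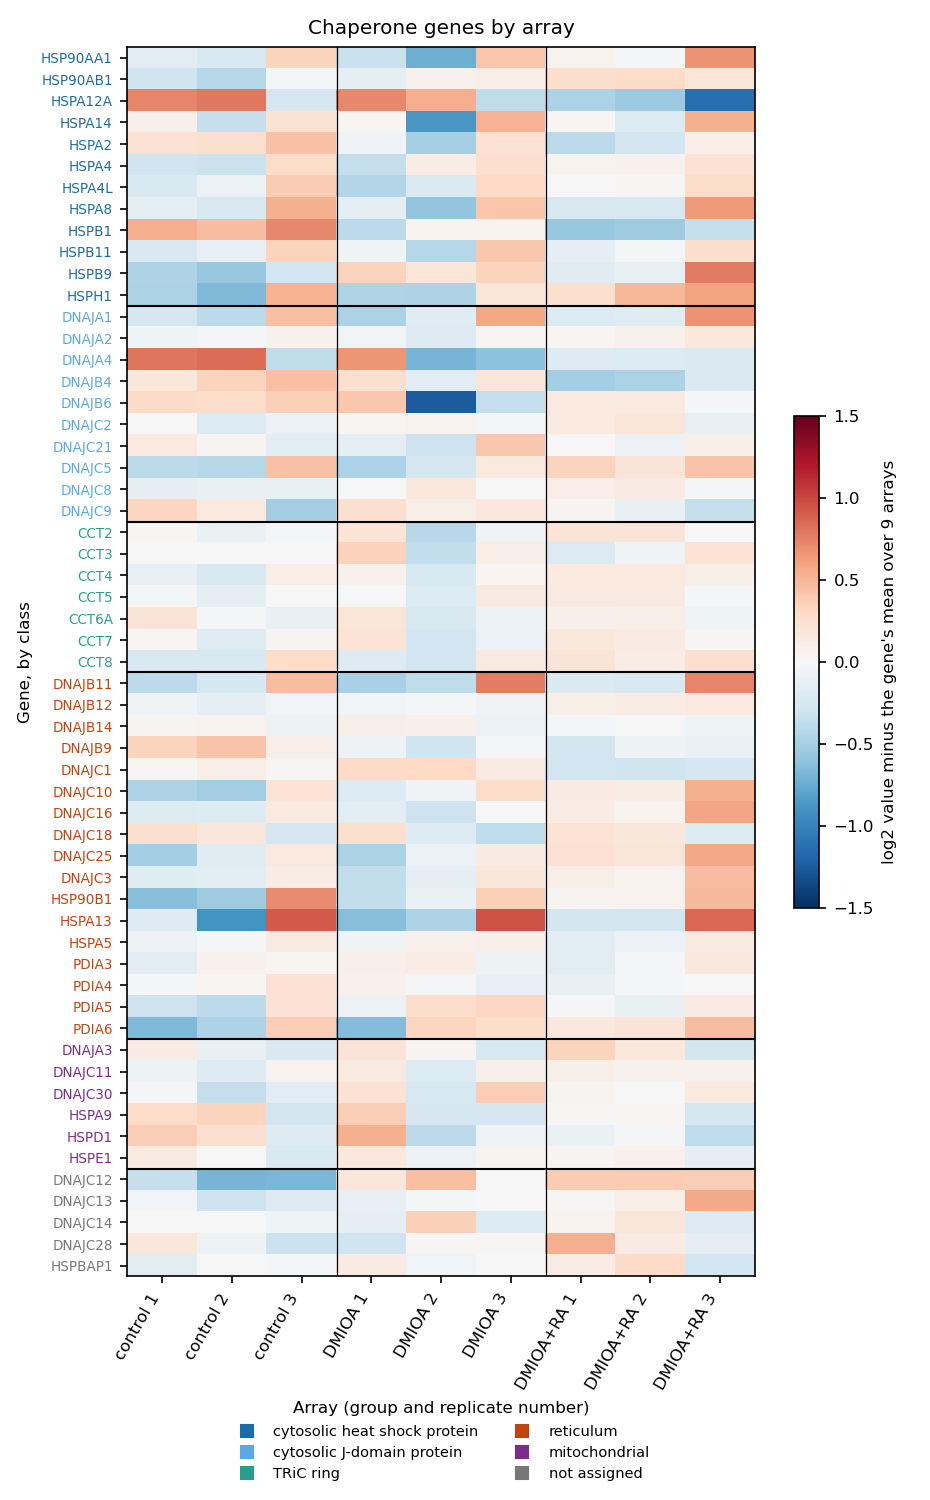
Colour map of the 57 tested chaperone genes (vertical axis, grouped by class) over the 9 arrays (horizontal axis); colour is the gene's log2 value minus its mean over the 9 arrays. Replicate 3 columns are warm for most cytosolic heat shock protein and reticulum genes, and DMIOA replicate 2 is cool for most cytosolic genes.

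**Figure D2:**
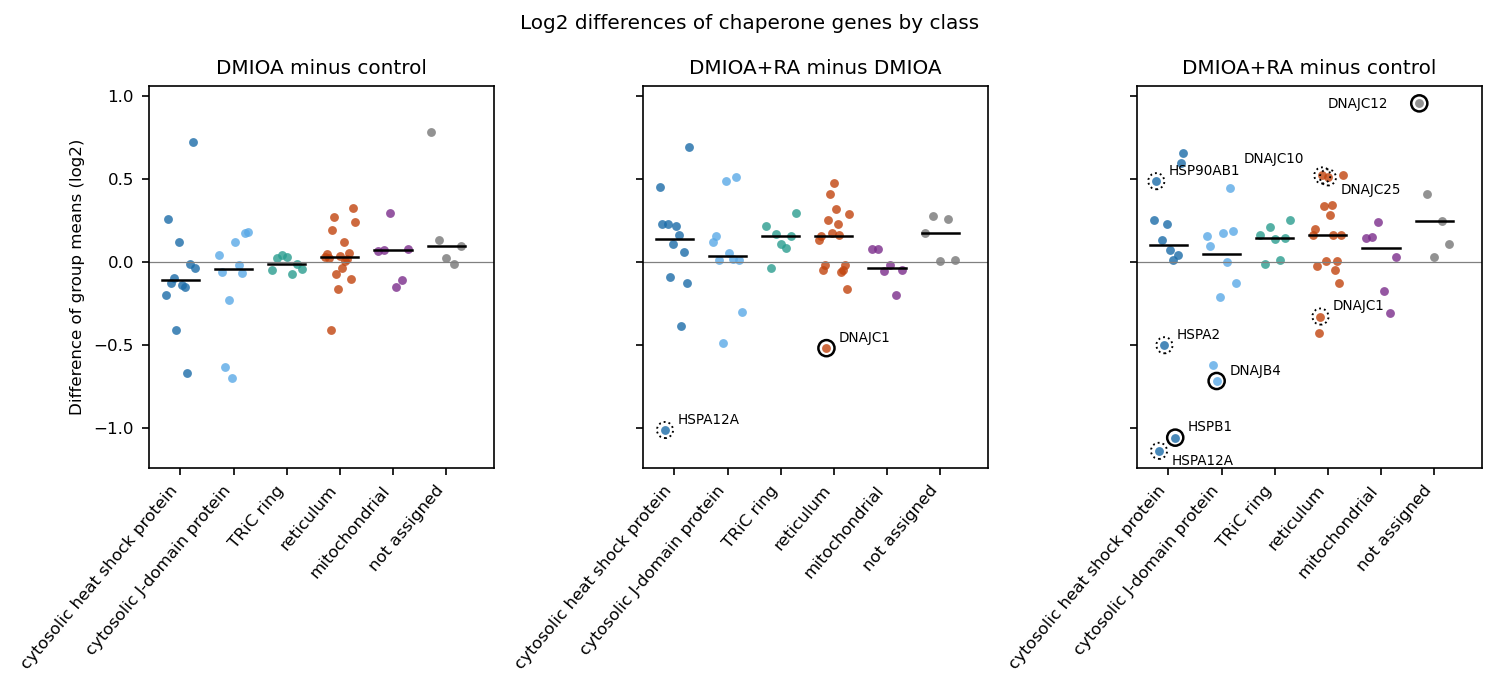
Difference of group means (log2, vertical axis) for each of the 57 genes by class, in the 3 comparisons; bars are class medians, solid rings mark genes called by limma and dotted rings those called only with the replicate number as a block. Most genes lie near 0, and HSPA12A, HSPB1 and DNAJC12 lie farthest out between retinoic acid and control.

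HSPB1 (gene ID 396227) encodes the small heat shock protein that holds unfolding proteins without using ATP and binds the actin cytoskeleton. Its log2 values were 11.001, 10.92 and 11.17 on the control arrays, 10.07, 10.51 and 10.51 with DMIOA, and 9.89, 9.92 and 10.11 with retinoic acid. All DMIOA and retinoic acid arrays lay below all control arrays, and only DMIOA replicate 1 lay within the range of the retinoic acid arrays. With retinoic acid it was 2.09-fold lower than in control, a log2 difference of -1.06 ± 0.16 (SE, n = 3 per group; limma adjusted p = 0.00553), and the 3 replicate numbers gave -1.11, -1.0015 and -1.06. Its call was kept in all of the 20 alternative settings, with limma adjusted p from 2.2e-06 to 0.0327. The lowest came with array weights, which called 67.5% of all probe sets in this comparison, and the next lowest was 0.00284 with the block. The setting with second probe sets could not change it, because HSPB1 had no second tested probe set. The difference of DMIOA from control, -0.67 ± 0.16, had an adjusted p of 0.188 in limma and 0.0617 with the block.

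HSPA12A (gene ID 423917) encodes a distant, atypical member of the Hsp70 family. It stood at 11.63, 11.69 and 10.64 in control, 11.62, 11.44 and 10.51 with DMIOA and 10.42, 10.35 and 9.76 with retinoic acid. Replicate 3 was the lowest array of each group, and every retinoic acid array lay below every array of the other groups. The log2 difference of -1.01 ± 0.38 (SE) from DMIOA had a limma adjusted p of 0.232 without the block and 0.00725 with it. Against control the difference was -1.14, with 0.0895 and 0.00256. By replicate number it was -1.21, -1.34 and -0.87 against control, and its second probe set gave -1.54.

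HSPA2 (gene ID 423504), an Hsp70 known in mammals for its part in sperm formation, was at 13.14, 13.15 and 13.35 in control, 12.86, 12.41 and 13.13 with DMIOA and 12.50, 12.63 and 13.002 with retinoic acid. Both treated groups lay below control without overlap, but DMIOA replicate 3 (13.13) was only just under the lowest control array (13.14). The difference of DMIOA from control was not called by limma, without or with the block. The log2 difference of retinoic acid from control was -0.50 ± 0.21, with a limma adjusted p of 0.151 and 0.0407 with the block. HSP90AB1 (gene ID 396188), the constitutive Hsp90, moved the other way, with 9.51, 9.38 and 9.80 in control, 9.68, 9.87 and 9.91 with DMIOA and 10.07, 10.08 and 9.99 with retinoic acid. All retinoic acid arrays were above the others. Its difference from control was 0.48 ± 0.14, with an adjusted p of 0.0546 and 0.0343 with the block.

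Unlike HSPA2 and HSP90AB1, the cytosolic HSPA8 and HSP90AA1 showed no called difference without or with the block, and their arrays parted by replicate number. HSPA8, the constitutive Hsp70 that also strips clathrin from vesicles, was at 12.92, 12.82 and 13.59 in control, 12.92, 12.47 and 13.48 with DMIOA and 12.82, 12.83 and 13.71 with retinoic acid. HSP90AA1, the stress-inducible Hsp90, was at 12.55, 12.48 and 13.05, at 12.37, 11.97 and 13.13, and at 12.76, 12.68 and 13.38 in the same order. In both genes replicate 3 was highest in every group and DMIOA replicate 2 was the lowest of the 9 arrays. The 95% confidence interval of the log2 difference between retinoic acid and control was -0.81 to 0.82 for HSPA8 and -0.50 to 1.01 for HSP90AA1.

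Of the Hsp110 proteins, which exchange the nucleotide on Hsp70, HSPH1 was at 7.84, 7.65 and 8.84 in control, 7.87, 7.86 and 8.50 with DMIOA and 8.57, 8.82 and 8.92 with retinoic acid. The retinoic acid arrays lay above the DMIOA arrays but not above control replicate 3. The log2 difference from DMIOA of 0.69 ± 0.32, the highest among cytosolic genes, had a limma adjusted p of 0.348. In the fit without replicate 3 in any group, HSPH1 was called higher in this comparison. HSPA4 and HSPA4L, of the same family, differed by 0.22 and 0.071 between retinoic acid and control, and the second probe set of each gave the opposite sign (-0.24 and -0.094). HSPB9, a small heat shock protein known from mammalian testis, was at 10.00 to 10.28 in control and 10.75 to 10.91 with DMIOA without overlap, a difference of 0.72 ± 0.25 with an adjusted p of 0.318.

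**Figure D3:**
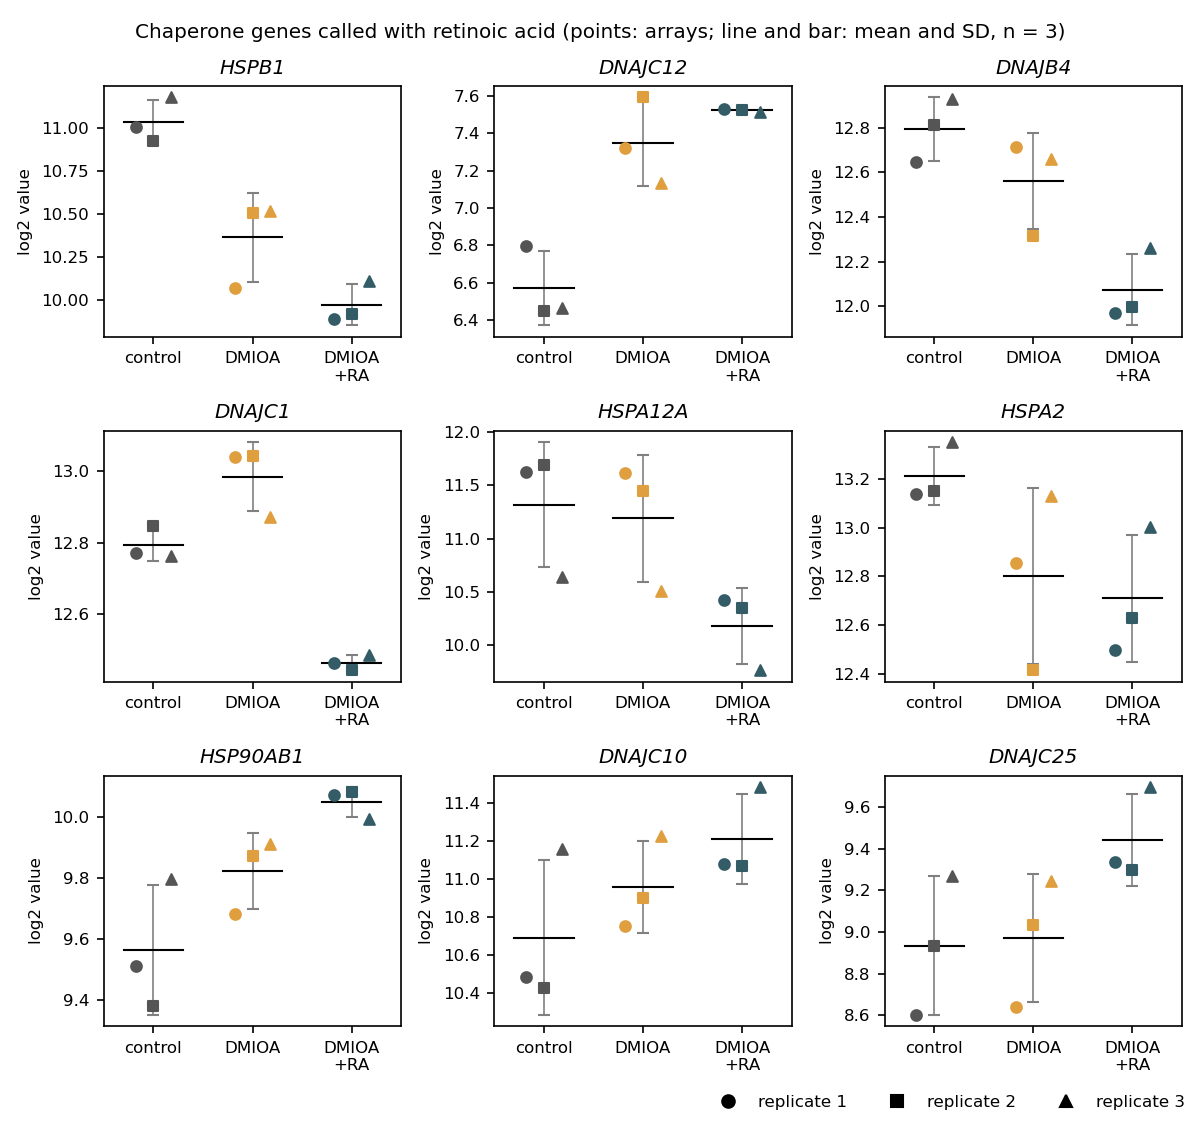
Log2 values (vertical axes, each with its own range) of the 9 chaperone genes called with retinoic acid against control or DMIOA, before or after blocking on replicate number; points are single arrays, marked by replicate number, and lines and bars are the group mean and SD (n = 3). The means of HSPB1 and DNAJB4 are lowest and that of DNAJC12 highest with retinoic acid, and HSPA12A and DNAJC10 show replicate 3 apart in every group.

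Among the cytosolic J-domain proteins, DNAJB4 (gene ID 424550), a class B partner of Hsp70, was the only one called. It stood at 12.65, 12.81 and 12.93 in control, 12.71, 12.32 and 12.66 with DMIOA and 11.97, 11.997 and 12.26 with retinoic acid. Every retinoic acid array lay below every other array, and DMIOA replicates 1 and 3 lay within the control range. The gene fell by 0.72 on the log2 scale against control (SE 0.15, n = 3 per group, 1.65-fold lower, limma adjusted p = 0.0217). Its other probe sets past the filter also gave lower values with retinoic acid, by -2.05 (adjusted p = 0.00953) and -0.51. The call was lost without control replicate 1 (adjusted p = 0.0511), control replicate 2 (0.0846), retinoic acid replicate 1 (0.0939) or retinoic acid replicate 2 (0.0908).

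DNAJB6, which keeps proteins from aggregating, had the lowest log2 difference between DMIOA and control among cytosolic genes. Its values were 12.79, 12.79 and 12.87 in control, 12.92, 11.27 and 12.16 with DMIOA and 12.65, 12.66 and 12.50 with retinoic acid. DMIOA replicate 2 was the lowest array by far. The difference from control was -0.70 ± 0.35 (limma adjusted p = 0.498), and by replicate number it was 0.12, -1.52 and -0.71. DNAJA4 was at 11.80 and 11.83 in control replicates 1 and 2 and at 10.62 in replicate 3, and at 11.66, 10.30 and 10.39 with DMIOA. Its retinoic acid arrays were at 10.78 to 10.81, within the range of both other groups. DNAJC5, the cysteine string protein of secretory vesicles, was higher on all retinoic acid arrays (10.25, 10.11 and 10.34) than on all DMIOA arrays (9.44, 9.66 and 10.06), with a difference of 0.51 ± 0.26 and an adjusted p of 0.388. Like HSPH1, DNAJC5 was called higher in this comparison in the fit without replicate 3. DNAJC8, which associates with the splicing machinery, and DNAJC9, a histone co-chaperone, had probe sets that disagreed in sign between retinoic acid and DMIOA.

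DNAJC12 (gene ID 423647), known in humans as the J-domain partner of Hsp70 for aromatic amino acid hydroxylases, was the only chaperone gene that rose by the test without the block. Its values were 6.80, 6.45 and 6.46 in control, 7.32, 7.59 and 7.14 with DMIOA and 7.53, 7.53 and 7.51 with retinoic acid. Every treated array lay above every control array, and the DMIOA and retinoic acid groups overlapped. The rise with retinoic acid over control was 1.94-fold, a log2 difference of 0.95 ± 0.15 (SE; limma adjusted p = 0.00791), and the call was kept in all 20 alternative settings with adjusted p up to 0.0425. As for HSPB1, the setting with second probe sets only repeated the main fit. DMIOA alone differed from control by 0.78 ± 0.15, with an adjusted p of 0.135 and of 0.0629 with the block.

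Of the other cell type markers, some moved with the same comparison. MYH1E, a muscle myosin, was lower with retinoic acid than in control by -4.13 on the log2 scale (limma adjusted p = 0.00413) and the endothelial gene PECAM1 by -2.77 (0.00705). CDH5, the other tested endothelial marker, differed by -0.14 (0.949). The 3 tested adipocyte markers parted: CIDEC, a lipid droplet gene, was higher by 2.97 (0.0437), while FABP4 and LPL gave -1.70 (0.504) and -2.45 (0.0993). With the block LPL was called lower against control (0.00181) and against DMIOA (0.0447), and the median of the 3 was -1.70 and -1.02. Of the 9 tested preadipocyte and stroma markers, PDGFRB was lower than in control by -1.03 (0.0385). With the block LUM, PDGFRB, PPARG and VIM were called lower than in control and PDGFRB lower than with DMIOA, and the median of the 9 was -0.21 and -0.22. MYOD1, MYOG, MYF5 and DES, which define skeletal muscle, were at 2.65 or lower on every array. Between DMIOA and control MYH1E differed by -2.34, and it was called lower there only with the block. The block also called 1 of the 2 tested endothelial markers lower with DMIOA than in control. The part of these markers in the chaperone results was not tested.

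The TRiC ring subunits stayed close together. CCT2, CCT3, CCT4, CCT5, CCT6A, CCT7 and CCT8 were all tested, and none was called in any comparison by limma, without or with the block. The fit without replicate 3 in any group called CCT8 between retinoic acid and control, where it called 29.4% of all probe sets. Between DMIOA and control their log2 differences ran from -0.074 to 0.043, with a median of -0.017, and between retinoic acid and control from -0.017 to 0.25, with a median of 0.14. The 95% confidence interval of the latter difference was -0.15 to 0.42 for CCT5 and -0.16 to 0.67 for CCT8. CCT4 was the one subunit whose retinoic acid arrays (11.60, 11.60 and 11.55) all lay above its DMIOA arrays (11.52, 11.23 and 11.49). CCT3 was near the filter on every array (5.10 to 5.83), so its differences carry little signal.

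The ring subunits shared a low array. DMIOA replicate 2 was the lowest of the 9 arrays for 6 of the 7, all but CCT4, and TCP1, the remaining ring subunit outside the name rule, was also lowest there (12.44, with the others at 12.51 to 12.94). CCT2 stood at 10.68 there and at 11.01 or higher elsewhere, CCT6A at 11.33 against 11.46 or higher, and CCT7 at 10.36 against 10.46 or higher. Against the mean of DMIOA replicates 1 and 3, the 7 subunits differed by -0.59 to -0.26 on the log2 scale.

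**Figure D4:**
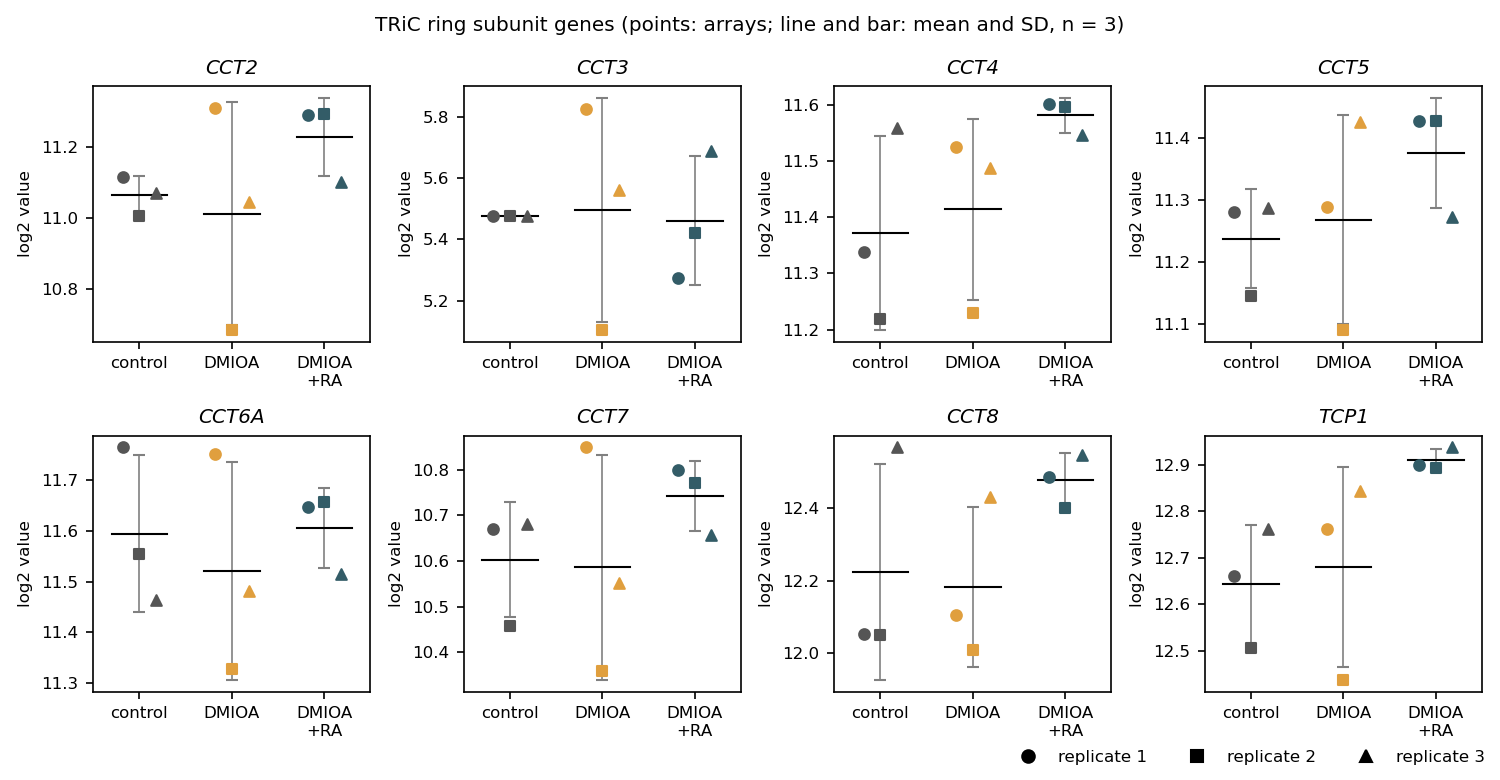
Log2 values (vertical axes, each with its own range) of the 7 TRiC ring subunit genes and TCP1 by group; points are single arrays, marked by replicate number, and lines and bars are the group mean and SD (n = 3). DMIOA replicate 2 is the lowest point in all panels but that of CCT4.

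Over all classes, DMIOA replicate 2 was the lowest array for 19 of the 57 chaperone genes, where 12.8% of all tested probe sets had their lowest value there. These were 15 of the 29 cytosolic genes, 2 of the 17 reticulum genes and 2 of the 6 mitochondrial ones. Its median difference from the mean of DMIOA replicates 1 and 3 was -0.28 for cytosolic genes, -0.31 for mitochondrial genes and 0.0036 for reticulum genes, and 0.0066 over all tested probe sets. Beside DNAJB6 (-1.27), the lowest differences were those of HSPA14, the Hsp70 of the ribosome-associated complex (-1.15), HSP90AA1 (-0.78) and HSPA8 (-0.73), while PDIA6, a disulfide isomerase of the reticulum, was higher there by 0.51. CIDEC had its highest value on the same array (9.75, with the others at 7.28 or lower), and its part in the result was not tested. Without this array the median difference of the cytosolic genes between DMIOA and control turned from -0.042 to 0.090.

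In the reticulum, DNAJC1 (gene ID 420508), a membrane-bound J-domain partner of BiP that also contacts ribosomes, was the gene called between retinoic acid and DMIOA. It stood at 12.77, 12.85 and 12.76 in control, 13.04, 13.04 and 12.87 with DMIOA and 12.46, 12.44 and 12.49 with retinoic acid. The 3 groups did not overlap, with DMIOA highest and retinoic acid lowest. Against DMIOA the gene fell by 0.52 (SE 0.10, 1.43-fold lower, limma adjusted p = 0.0309), and its second probe set fell by 0.98 (adjusted p = 0.00857). Against control the log2 difference was -0.33, with an adjusted p of 0.0678 and 0.0420 with the block, and DMIOA differed from control by 0.19 (adjusted p = 0.523). The call against DMIOA was lost with only the arrays of the groups compared (adjusted p = 0.104) and without control replicate 1 (0.0682) or 2 (0.0707), DMIOA replicate 1 (0.0821) or 2 (0.0759), or retinoic acid replicate 1 (0.144) or 2 (0.151).

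The main folding enzymes of the reticulum had no called difference, without or with the block. HSP90B1 differed by 0.34 between retinoic acid and control (limma adjusted p = 0.581), and its second probe set by 1.24 (0.303). In the fit without replicate 3 in any group, HSP90B1 was called in this comparison. HSPA5, the reticulum Hsp70 known as BiP and the classic target of the unfolded protein response, was at 13.13, 13.20 and 13.36 in control, 13.17, 13.29 and 13.29 with DMIOA and 13.06, 13.13 and 13.35 with retinoic acid. The groups overlapped throughout, and the 95% confidence intervals of its log2 differences were -0.27 to 0.30 for DMIOA against control and -0.33 to 0.24 for retinoic acid against control. PDIA3 and PDIA4, disulfide isomerases, had intervals of -0.29 to 0.30 and -0.38 to 0.13 for retinoic acid against control. PDIA6 was at 10.93, 11.12 and 11.96 in control, 10.94, 11.91 and 11.86 with DMIOA and 11.75, 11.78 and 12.05 with retinoic acid. Its low arrays were control replicates 1 and 2 and DMIOA replicate 1, and its difference of 0.52 ± 0.34 between retinoic acid and control had a limma adjusted p of 0.336.

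DNAJC10, the reticulum disulfide reductase with a J domain, was at 10.49, 10.43 and 11.16 in control, 10.75, 10.90 and 11.23 with DMIOA and 11.08, 11.07 and 11.49 with retinoic acid. Within each replicate number retinoic acid was above control, by 0.59, 0.64 and 0.33. The log2 difference of 0.52 had a limma adjusted p of 0.181, and 0.0182 with the block. DNAJC25, a membrane J-domain protein (8.60, 8.94 and 9.27 in control and 9.34, 9.30 and 9.70 with retinoic acid), differed by 0.51, with 0.174 and 0.0221. DNAJB9, which helps to turn over misfolded reticulum proteins, had the lowest log2 difference between DMIOA and control among reticulum genes. It was at 8.70, 8.80 and 8.46 in control, 8.30, 8.07 and 8.35 with DMIOA and 8.09, 8.30 and 8.27 with retinoic acid. Both treated groups lay below control, and the differences of -0.41 and -0.43 had adjusted p of 0.304 and 0.0777. Its second probe set was called lower with retinoic acid than in control (-0.79, adjusted p = 0.0339). PDIA5 had the highest log2 difference between DMIOA and control among reticulum genes (0.33, adjusted p = 0.574).

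The mitochondrial chaperones showed no called difference, without or with the block. HSPD1 and HSPE1, the Hsp60 and Hsp10 chaperonin whose genes are neighbours in the RefSeq gene table, were at 13.02, 12.88 and 12.46 and at 13.20, 13.07 and 12.85 in control. With DMIOA they were at 13.18, 12.25 and 12.59 and at 13.24, 12.99 and 13.13, and with retinoic acid at 12.55, 12.62 and 12.26 and at 13.12, 13.13 and 12.94. Both were highest on DMIOA replicate 1. The log2 difference of retinoic acid from control was -0.31 for HSPD1 (95% confidence interval -0.90 to 0.28), the lowest of the class, and 0.025 for HSPE1 (-0.29 to 0.34). HSPA9, the mitochondrial Hsp70 or mortalin, was at 12.88, 12.95 and 12.34, at 12.98, 12.37 and 12.36 and at 12.64, 12.65 and 12.36 in the 3 groups, with replicate 3 below the rest. The margin was narrow, with DMIOA replicate 2 at 12.37 and replicate 3 of DMIOA and retinoic acid at 12.36. DNAJC30 had the highest log2 difference between DMIOA and control in the class, 0.30 with an adjusted p of 0.578.

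Set side by side, the compartments had small median differences in each comparison. Between DMIOA and control the median log2 difference was -0.042 for cytosolic, 0.030 for reticulum and 0.069 for mitochondrial genes, and 0.022 over all tested probe sets. Between retinoic acid and DMIOA it was 0.11, 0.15 and -0.037, and 0.044 over all probe sets. Between retinoic acid and control it was 0.13, 0.16 and 0.084, with 0.080 over all probe sets. By replicate number, the median of cytosolic genes between retinoic acid and DMIOA was 0 in replicate 1, 0.32 in replicate 2 and 0.056 in replicate 3, where that of reticulum genes was 0.14, 0.14 and 0.13. Mitochondrial genes gave -0.15, 0.25 and -0.11. Without DMIOA replicate 2 the reticulum median of this comparison was -0.014.

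Groups that did not overlap were counted against the same count over all tested probe sets. DMIOA lay wholly above control for 4 chaperone genes (8.21% of probe sets) and wholly below for 3 (7.34%). Retinoic acid lay wholly above DMIOA for 9 genes (12.8%) and below for 4 (9.16%), and above control for 9 (23.1%) and below for 7 (15.5%). The 9 above DMIOA were 5 cytosolic genes, 3 reticulum genes and 1 gene not assigned, and 0 of the 6 mitochondrial genes. They included DNAJA2, DNAJB12, DNAJC13 and DNAJC16, with log2 differences of 0.15, 0.15, 0.28 and 0.41.

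The chaperone genes also parted by replicate number. In 13 of the 57 genes all replicate 3 arrays lay above the 6 arrays of replicates 1 and 2, where 9.89% of tested probe sets did, and in 4 they lay below, where 13.8% did. The 13 included 6 of the 12 genes classed as cytosolic heat shock proteins (HSPA8, HSPA4, HSPA4L, HSPA14, HSP90AA1 and, by its symbol, HSPB11). The others were DNAJA1 of the 10 cytosolic J-domain proteins and 6 of the 17 reticulum genes (HSPA5, HSPA13, HSP90B1, DNAJB11, DNAJC3 and DNAJC10). Below were the mitochondrial HSPA9 and DNAJA3 and the reticulum membrane proteins DNAJB14 and DNAJC18. No TRiC subunit was on either side. Of the 19 genes under the filter, the mitochondrial DNAJC15 and DNAJC19 were also above, at 4.51 or lower.

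HSPA13, a short Hsp70 of the reticulum that lacks the substrate-binding part, had the widest gap. It stood at 6.32, 6.35 and 6.27 in replicate 3 of control, DMIOA and retinoic acid and at 4.50 to 5.21 on the other arrays. The replicate 3 arrays were enough for HSPA13 to pass the filter, and the others lay near or below 5. The size of its gap therefore carries little signal. DNAJB11, the secreted-protein partner of BiP, was at 8.71, 9.01 and 8.99 against 7.77 to 8.04. DNAJA1, a class A partner of HSPA8, was at 9.98, 10.11 and 10.20 against 9.05 to 9.34. HSP90B1, the reticulum Hsp90, was at 12.77, 12.42 and 12.55 against 11.42 to 12.11, while HSPA5 was separated by 0.0058 only. On the low side DNAJA3, the mitochondrial J-domain protein, was at 9.02 to 9.07 against 9.18 to 9.62.

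By class, the median of replicate 3 minus the mean of replicates 1 and 2 was 0.44 for cytosolic heat shock proteins, 0.058 for cytosolic J-domain proteins, 0.052 for TRiC subunits, 0.32 for reticulum genes and -0.23 for mitochondrial genes, and -0.038 over all tested probe sets. In the control, DMIOA and retinoic acid groups taken alone it was 0.44, 0.56 and 0.30 for the heat shock proteins, 0.29, 0.22 and 0.26 for the reticulum and -0.26, -0.054 and -0.23 for mitochondria. The leukocyte markers moved with the same arrays, as given above, and so did 1 of 5 endothelial markers, CDH5 (10.82 to 10.93 in replicate 3 and 7.82 to 8.98 elsewhere), but not KDR, PECAM1, TEK and VWF. Their part in the chaperone levels was not tested. Without replicate 3 in any group, the limma calls were 0 chaperone genes for DMIOA against control (all probe sets 1.4%), 4 for retinoic acid against DMIOA (12.3%) and 12 against control (29.4%). The 4 were DNAJC1, DNAJC5, HSPA12A and HSPH1. The 12 were these 4 and CCT8, DNAJB4, DNAJB9, DNAJC10, DNAJC12, HSP90AB1, HSP90B1 and HSPB1. Leaving out control replicate 3 alone gave 9 in the last comparison (16.2%).

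**Figure D5:**
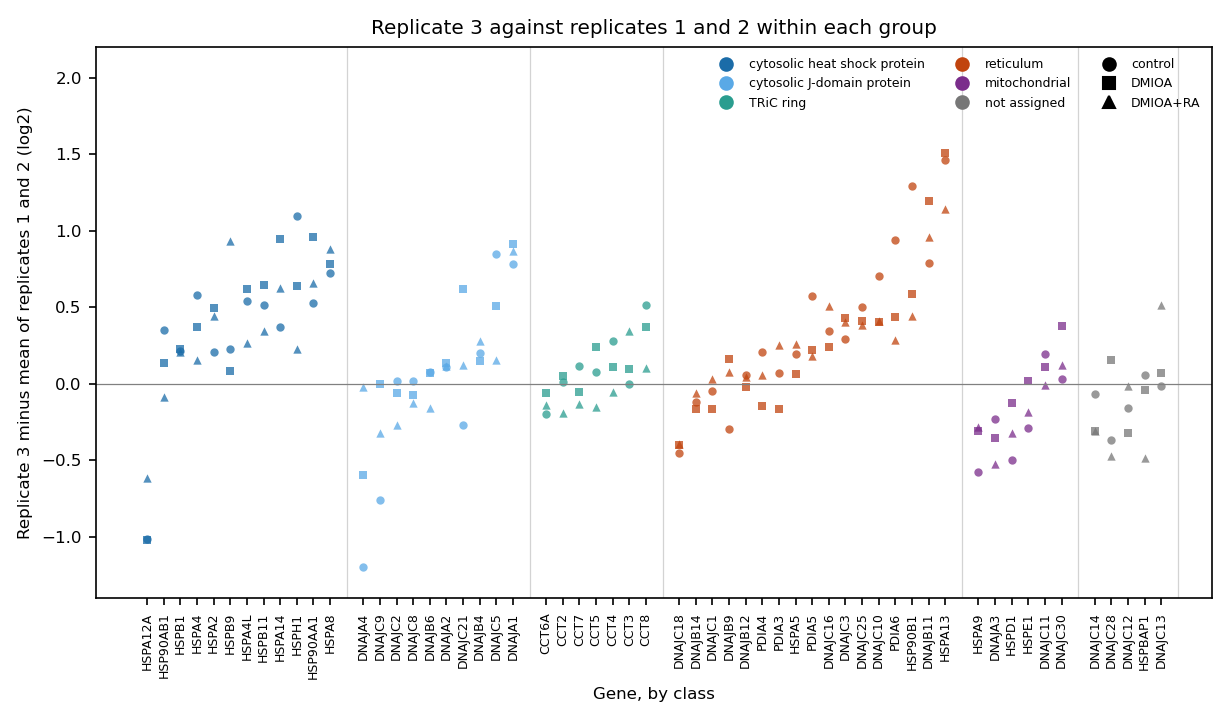
Replicate 3 minus the mean of replicates 1 and 2 within each group (log2, vertical axis) for each of the 57 genes, ordered within class (horizontal axis); marker shapes are the 3 groups. Most cytosolic heat shock protein and reticulum genes lie above 0 in all groups, TRiC subunits lie around 0, and HSPA9 and DNAJA3 lie below 0.

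Within groups, replicates 1 and 2 of the retinoic acid cells were nearly the same for chaperone genes. The median absolute log2 difference between them was 0.033, against 0.11 in control and 0.25 with DMIOA, and over all tested probe sets it was 0.067, 0.12 and 0.29. If such close arrays do not come from separate cultures, the p-values of the retinoic acid comparisons are too small, and this could not be checked.

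Genes of the same folding pathways outside the name rule were read from a list of heat shock factors, co-chaperones and unfolded protein response genes. Of the 4 heat shock factors, 3 were on the array and 2 passed the filter, and neither was called in any comparison. HSF2 was at 10.04 to 11.23 and HSF3, a heat shock factor known from birds, at 7.81 to 8.53. Of 16 tested cytosolic co-chaperones, only CDC37 was called by limma without the block. Of all tested probe sets, 3.89% were called between retinoic acid and DMIOA and 13.2% between retinoic acid and control. CDC37, which brings kinases to Hsp90, was at 6.01, 6.0004 and 6.94 in control, 7.05, 6.91 and 7.56 with DMIOA and 8.39, 8.39 and 8.54 with retinoic acid. All retinoic acid arrays were above all others, and the rise was 1.26 on the log2 scale over DMIOA (adjusted p = 0.0498) and 2.12 over control (0.00349).

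Of 20 tested reticulum genes on that list, 1 was called without the block, against control, where 13.2% of all tested probe sets were. This was SERPINH1, the collagen chaperone, lower with retinoic acid than in control. It was at 12.91, 12.76 and 12.53 in control, 12.59, 12.54 and 12.22 with DMIOA and 12.21, 12.16 and 12.21 with retinoic acid. It fell by 0.54 (limma adjusted p = 0.0476). XBP1, the transcription factor of the unfolded protein response, stayed at 12.42 to 12.74 on all arrays, and DMIOA and retinoic acid called none of the 7 tested mitochondrial genes. CALR, CANX, CRELD2, EDEM1, HYOU1 and P4HB were above the other arrays in replicate 3, as HSP90B1 and DNAJB11 were, while ASNS, ERN1 and HERPUD1 were below. Of all tested probe sets, 9.89% were above and 13.8% below in this way. With the block, P4HB, BAG2, PFDN1 and SERPINH1 were lower and CDC37, AHSA2, FKBP4 and PFDN4 higher with retinoic acid than in control. The block called 28.8% of all tested probe sets in this comparison.

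Of the 29 chaperone genes with several tested probe sets, all probe sets had the same sign in 20 between DMIOA and control, in 24 between retinoic acid and DMIOA and in 25 between retinoic acid and control. Of the genes called without the block, DNAJC1 and DNAJB4 were among the 29, and their probe sets had the same sign in the comparison of the call. HSPB1 and DNAJC12 had no second tested probe set, so agreement could not be checked for them. HSPA4 and PDIA4 disagreed in all 3 comparisons. HSP90B1 differed by 0.12 and -0.15 between its probe sets with DMIOA, and HSPA12A by -0.13 and 0.026, while CCT8, DNAJA3, DNAJB12, DNAJB14 and DNAJC16 disagreed there with differences of -0.26 to 0.13. Hsp70 genes are close in sequence, and whether a probe set also read a related transcript was not tested.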

How the data were processed

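Total RNA had been labelled as 15 ug of biotinylated aRNA, per the labels' protocols, and read on 1-colour Affymetrix chicken arrays. The deposited values are log2 expression per probe set that the authors made by GCRMA, as named in the submitters' processing notes without a version or settings. That method models background from the bases of each probe, then by default quantile-normalizes and summarises. With no detection calls used, signal was judged by the log2 level (0.362 to 15.0 over the table).

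Of 37693 chicken probe sets, the 12329 with at least 5 on at least 3 arrays were fitted in limma 3.58.1 (R 4.3.3; lmFit, eBayes) with a mean per group over all 9 arrays (6 residual degrees of freedom, 4 with the block). P-values were adjusted by Benjamini-Hochberg over all of these and called under 0.05. Symbols came from the platform annotation, and 76 of 76 gene IDs were found in the RefSeq gene table. No genome build is tied to the probe sets, so no coordinates or sequences are given. Deviations from the group means, by which the replicate numbers were taken to pair the samples, correlated at 0.375 to 0.857 over the 9 same-numbered pairs of arrays and at -0.80 to 0.668 over the 18 others. Numbers 1 and 2 were not told apart: control replicate 2 correlated at 0.668 with DMIOA replicate 1 and at 0.395 with DMIOA replicate 2. The genes, classes and lists were chosen with earlier results of these data known. Named by rule were genes called with or without the block, the main chaperone machines, and the largest fitted rise and fall per compartment and comparison. The rule also took the widest gaps of replicate 3 and genes whose probe sets disagreed. Further genes, among them DNAJA2, DNAJA4, DNAJC5, DNAJC13, HSPA14 and HSPB11, were named outside this rule with their values known. Other filters, scalings, priors, weights, array subsets and probe sets were tried, and the scripts were tested on simulated data.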

Additional observations from a re-analysis of the deposited data

How the results depend on the processing

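The replicate block changed the number of chaperone genes called from 1 to 2 for retinoic acid against DMIOA and from 3 to 9 against control, and left 0 for DMIOA against control. Array weights called 1, 2 and 36 in the 3 comparisons, beside 2.18%, 9.99% and 67.5% of all probe sets. An intensity trend with a robust prior called 5 against control (13.4% of probe sets) and the second probe set of each gene also called 5 (13.2%). With only the arrays of the groups compared, 0 were called for retinoic acid against DMIOA, beside 216 of all probe sets, where the main fit called 479. Filters at 4 or 6, no filter, centring and cyclic loess gave 0, 1 and 3 or 4. Beside these stood 14 to 19, 460 to 499 and 1479 to 1721 of all probe sets.

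Leaving out 1 array at a time, the calls ranged from 0 to 0, 0 to 1 and 2 to 9, where the 9 came without control replicate 3, and those over all 12329 probe sets from 0 to 39, 146 to 602 and 546 to 1997. With the block they ranged from 0 to 1, 1 to 4 and 3 to 11 (against control 8, 10 or 6 without DMIOA replicate 1, 2 or 3, 5 without retinoic acid replicate 2 and 11 without control replicate 3), beside 0 to 398, 371 to 1560 and 1343 to 3898 probe sets. Replicates 1 and 2 alone gave 0, 4 and 12, beside 172, 1517 and 3620.

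The cytosolic median between retinoic acid and control was 0.041 without a filter. The reticulum median between retinoic acid and DMIOA was 0.14 without a filter, 0.14 with centred arrays, 0.072 with cyclic loess and 0.13 from second probe sets. With 1 array left out, the medians of DMIOA against control ran from -0.17 to 0.090 for cytosolic, -0.064 to 0.091 for reticulum and -0.015 to 0.12 for mitochondrial genes. Between retinoic acid and DMIOA they ran from 0.037 to 0.20, -0.032 to 0.17 and -0.12 to 0.099, and between retinoic acid and control from 0.015 to 0.18, 0.059 to 0.35 and -0.0033 to 0.13. Their sign therefore turned in 6 of these 9 ranges. Under cyclic loess replicate 3 lay below the other arrays for 2 genes, not 4, beside 1468 of all tested probe sets, not 1704. It lay above them for 15 genes, not 13, beside 1493 of all tested probe sets, not 1219. The cause of these shifts was not tested.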

Other observations

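Of the 7 tested mitochondrial folding and protease genes outside the name rule, only 1, LONP1, lay below the other arrays in replicate 3. Of all tested probe sets 13.8% did. The median of replicate 3 minus the mean of replicates 1 and 2 was -0.21 for the 7 genes and -0.038 over all tested probe sets. LONP1, the matrix protease, was at 8.78, 9.28 and 9.30 in replicate 3 of control, DMIOA and retinoic acid and at 9.33 to 9.94 on the other arrays. GRPEL1, the nucleotide exchange factor of HSPA9, was at 9.15, 9.001 and 9.40 in replicate 3 and at 9.09 to 9.78 elsewhere, so the groups overlapped. TRAP1, the mitochondrial Hsp90, was at 9.24 to 9.66 on all arrays.

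Asparagine synthetase, encoded by ASNS and a target of the amino acid and unfolded protein responses, was at 10.11, 10.02 and 9.61 in replicate 3 and at 10.93 to 11.66 elsewhere, opposite to HSP90B1, HSPA13 and DNAJB11 on the same arrays. HERPUD1, a membrane protein of reticulum-associated degradation, was at 8.51, 8.43 and 8.71 against 8.88 to 9.34. CHORDC1, an Hsp90 co-chaperone, had its lowest value on DMIOA replicate 2 (5.77, with the others at 6.76 to 7.68), the array on which most cytosolic chaperone genes were low. These values carry no test.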
